A study of Homo sapiens with 14 samples.

Results

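The 6 genes described here encode the ERM proteins ezrin (EZR), radixin (RDX), and moesin (MSN), their relative merlin (NF2), the adaptor NHERF1 (listed under its older symbol SLC9A3R1), and the hyaluronan receptor CD44. They were selected by name from the 19410 genes of the RNA-Seq table, and all 6 passed the filter on low levels. The cells were MDA-MB-231, an established triple-negative breast cancer (TNBC) line with a mesenchymal-like appearance. Unedited parental cells were compared with 6 CRISPR/Cas9-edited lines, SAP30-KO1 and SAP30-KO2, which lack the SIN3 complex subunit SAP30, SIN3A+SIN3B-DKO1 and SIN3A+SIN3B-DKO2, in which both SIN3 scaffold genes were targeted, and MLL1-KO1 and MLL1-KO2, in which a histone H3K4 methyltransferase gene was targeted. Each of the 7 conditions had 2 libraries. The edited lines were mixtures of several selected knockout cells that had passed through puromycin, and no control guide is named for the parental libraries, so editing and selection cannot be told apart from the loss of the targeted gene. The labels do not say whether 2 libraries of a condition came from separate cultures, and the p-values therefore measure the spread between these libraries, which may be technical.

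ERM proteins link the actin cortex to the plasma membrane. Their FERM domain holds the cytoplasmic tails of receptors such as CD44 or the PDZ adaptor NHERF1, and their C-terminal end holds F-actin once phosphorylation by kinases such as ROCK, LOK (STK10), and SLK has opened the molecule. Merlin has a similar FERM domain without the C-terminal actin site, acts as a tumor suppressor, and feeds into the Hippo pathway that restrains YAP and TAZ. In migrating and metastasizing cancer cells the ERM proteins are known for shaping microvilli, blebs, and the rear of the cell, and CD44 for adhesion to hyaluronan. The study asked how SAP30, SIN3A and SIN3B, and MLL1 alter transcription in TNBC cells, and the question addressed here is whether the RNA of the RDX paralogs was higher where RDX was lower. Protein, phosphorylation, and actin attachment were not measured in these libraries.

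RDX and SLC9A3R1 fell in every edited line, with levels in TPM (transcripts per 1000000) that were 1.92- to 3.58-fold and 1.80- to 2.06-fold lower, respectively. CD44 rose in both MLL1-KO lines, by 1.65- and 2.11-fold, and was not called in the other 4, and MSN, EZR, and NF2 stayed under the 1.5-fold minimum in all 6 comparisons. A gene was said to rise or fall when limma gave an adjusted p under 0.05 together with a change of at least 1.5-fold. By that rule 2 of the 6 genes were lower in each line, where the share of the 13540 tested genes called lower was 7.86% in SAP30-KO1, 8.12% in SAP30-KO2, 8.66% in SIN3A+SIN3B-DKO1, 7.56% in SIN3A+SIN3B-DKO2, 16.3% in MLL1-KO1, and 14.9% in MLL1-KO2. RDX was 1 of these 2, and the paper had already reported it as lower without SAP30, SIN3A and SIN3B, or MLL1. The 6 genes were chosen with that known, so the counts of lower genes are no test of the set. The 1 gene called higher in each MLL1-KO line stands beside 6.89% of tested genes in MLL1-KO1 and 10.2% in MLL1-KO2. The other 4 lines had 0 of the 6 genes called higher, against 7.8%, 7.44%, 7.76%, and 6% of all genes in SAP30-KO1, SAP30-KO2, SIN3A+SIN3B-DKO1, and SIN3A+SIN3B-DKO2. All 6 comparisons use the same pair of parental libraries and are not independent of each other. Without the fold minimum, 6, 6, 4, 6, 5, and 5 of the 6 genes had an adjusted p under 0.05 in the 6 lines (SAP30-KO, SIN3A+SIN3B-DKO, then MLL1-KO), where 51%, 51.7%, 56%, 49.6%, 60.5%, and 64.2% of all tested genes did, so this count alone says little about the 6 genes. Genes lower in every line made up 2.67% of those tested.

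**Figure D1:**
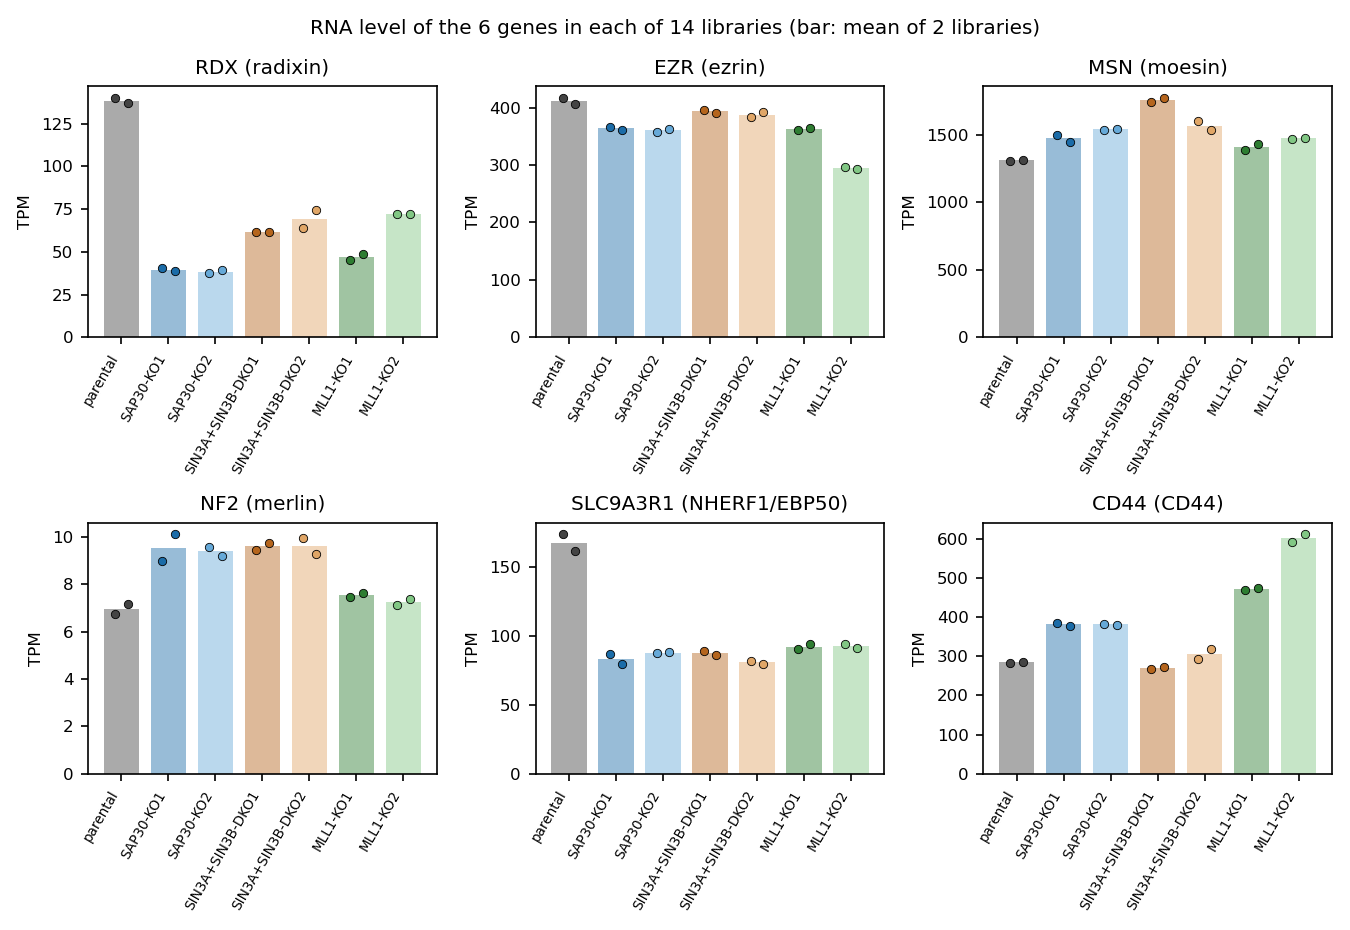
RNA level in TPM (y axes from 0) of RDX, EZR, MSN, NF2, SLC9A3R1, and CD44 in each of the 14 libraries (points), with the mean of the 2 libraries of a condition as a bar. RDX and SLC9A3R1 sit lower in all 12 edited libraries than in both parental libraries, whereas CD44 is highest in the 4 MLL1-KO libraries.

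The libraries held 18415036 to 23162682 recovered reads. SAP30 fell by 4.38 and 4.27 on the log2 scale in SAP30-KO1 and SAP30-KO2. SIN3B fell by 0.61 and 0.71 in SIN3A+SIN3B-DKO1 and SIN3A+SIN3B-DKO2, whereas SIN3A had log2 differences of 0.47 and 0.31 there, so RNA level gives no check of the SIN3A label. The MLL1 gene, listed as MLL, fell by 1.64 and 0.97 in MLL1-KO1 and MLL1-KO2 and also by 0.95 and 0.65 in SAP30-KO1 and SAP30-KO2, where its neighbours on chromosome 11 were lower as well. After subtraction of the running median over 51 neighbouring genes, MLL was at -0.68 in MLL1-KO1, still called, and at -0.56 in MLL1-KO2, -0.06 in SAP30-KO1, and 0.19 in SAP30-KO2, not called. VIM, a mesenchymal marker, was at 5741 TPM or more in every library, and rose by 0.59 in MLL1-KO1. That call was lost at 0.58 without parental replicate 2 and at 0.57 without MLL1-KO1 replicate 2. It was also lost under quantile normalization, at 0. That scaling gives genes of equal rank the same level and cannot show a change in a gene that keeps its rank. CAV1, another gene of the MDA-MB-231 marker list, fell in all lines but MLL1-KO1 (-0.83 to -0.68), from 638 and 659 TPM in parental cells. Of the luminal markers, ESR1 and PGR stayed at or under 0.191 TPM, while GATA3 was at 8.16 to 17.3 TPM and ERBB2 at 21.9 to 42.8 TPM. CDH5 and DCN, which mark endothelial cells and fibroblasts, were at or under 0.0555 TPM. CDH1, a luminal marker at 1.07 and 1.25 TPM in parental cells, fell in all 6 lines (-1.68 to -1.09), ERBB2 fell in 5, and KRT18 fell in 4, while COL1A1 and PECAM1 each rose in 4. Subtracting neighbouring genes ended all 5 ERBB2 calls (-0.57 to -0.25) and that of COL1A1 in SAP30-KO1 (0.47). The PECAM1 calls were lost in SAP30-KO2 without its replicate 2 (0.51) and in MLL1-KO1 without its replicate 1 (0.58) or parental replicate 1 (0.52), and the KRT18 call in SIN3A+SIN3B-DKO1 was lost with voom on recovered reads (-0.58). The summed level of the 6 leukocyte, endothelial, and fibroblast markers was 6.19 to 6.78 TPM in parental and 7.58 to 16.1 TPM in edited libraries, and its part in the results was not tested.

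The promoter sequences of the pair that fell in every line are shown with that of EZR, an RDX paralog called in no line, so that their base composition can be compared. They end at the RefSeq transcription start or where an annotated exon begins, are given 5′ to 3′ on the gene's strand, and were placed on GRCh37 by exact match. Capitals mark the GC box GGGCGG or its complement CCGCCC. The RDX stretch is chr11:110167438-110167589 on the minus strand, the SLC9A3R1 stretch is chr17:72744517-72744711 on the plus strand, and the EZR stretch is chr6:159239268-159239517 on the minus strand. The EZR stretch lies inside the annotated span of EZR given below, whose 5′ end is further upstream, but outside every annotated exon.
RDX: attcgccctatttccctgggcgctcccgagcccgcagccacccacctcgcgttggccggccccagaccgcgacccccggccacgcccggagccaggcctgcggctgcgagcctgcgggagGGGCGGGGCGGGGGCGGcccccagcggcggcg
SLC9A3R1: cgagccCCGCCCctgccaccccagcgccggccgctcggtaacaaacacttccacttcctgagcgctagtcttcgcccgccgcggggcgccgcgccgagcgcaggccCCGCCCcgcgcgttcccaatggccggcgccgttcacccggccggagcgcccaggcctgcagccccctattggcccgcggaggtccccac
EZR: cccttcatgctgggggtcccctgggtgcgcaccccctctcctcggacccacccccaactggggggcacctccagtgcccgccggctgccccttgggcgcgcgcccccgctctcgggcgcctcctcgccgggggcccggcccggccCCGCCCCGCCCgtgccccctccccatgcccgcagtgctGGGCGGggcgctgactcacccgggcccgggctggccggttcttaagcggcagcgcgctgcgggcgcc

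All of these 3 promoters were rich in G and C. Over the 250 bases before the start, G and C made up 82.0% in RDX, 77.6% in SLC9A3R1, and 80.8% in EZR, against a median of 58.0% over 35116 RefSeq promoters. The same windows held 38, 35, and 28 CpG dinucleotides. Searching both strands and counting overlapping matches, the RDX window had 3 GC boxes, SLC9A3R1 had 4, EZR had 3, and 42.6% of all promoters had at least 1. The SLC9A3R1 window also had 2 matches to CCAAT, found in 32% of promoters, and neither TATAAA nor CACGTG occurred in the 3 windows. Among the other members the windows differed. CD44 had 62.4% G and C, 15 CpG, and 2 GC boxes. The annotated starts of MSN had 57.2% and 78.0% G and C, 5 and 26 CpG, and 1 and 4 GC boxes, and those of NF2 had 71.6% and 62.4%, 31 and 16 CpG, and 1 GC box each. A match in letters is a description, not evidence that a factor binds.

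Radixin RNA was lower in every edited line. RDX lies on chromosome 11 from 109735021 to 110167437 on the minus strand (GRCh37), where it overlaps the opposite-strand gene ZC3H12C, and whether the counting used strand is not given in the sources used here. Parental libraries had 140.0 and 137 TPM. SAP30-KO1 had 40.7 and 38.5 TPM, and SAP30-KO2 had 37.3 and 39.3 TPM, the lowest levels of the series. SIN3A+SIN3B-DKO1 had 61.8 and 61.7 TPM, and SIN3A+SIN3B-DKO2 had 64.0 and 74.4 TPM. MLL1-KO1 had 45 and 48.8 TPM, and MLL1-KO2 had 71.9 and 72.1 TPM. All 12 edited libraries were lower than both parental libraries with no overlap, and each value rested on 1624 to 5593 reads. The change on the log2(TPM + 0.5) scale was -1.79 in SAP30-KO1, -1.84 in SAP30-KO2, -1.16 in SIN3A+SIN3B-DKO1, -1.0 in SIN3A+SIN3B-DKO2, -1.55 in MLL1-KO1, and -0.94 in MLL1-KO2, each with a standard error of 0.07 (largest adjusted p = 7.1e-07, limma). In the order of mean levels, the neighbours MLL1-KO2 (72.0 ± 0.150 TPM, SD, n = 2) and SIN3A+SIN3B-DKO2 (69.2 ± 7.38 TPM) overlapped, as did SAP30-KO1 (39.6 ± 1.55 TPM) and SAP30-KO2 (38.3 ± 1.46 TPM).

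The decrease of RDX differed between genotypes and between the MLL1-KO lines. The SAP30-KO lines, at 37.3 to 40.7 TPM, were lower than the SIN3A+SIN3B-DKO lines, at 61.7 to 74.4 TPM, with a log2 difference of -0.74 ± 0.05 (SE, adjusted p = 4.2e-07). MLL1-KO1 was lower than MLL1-KO2 by -0.61 ± 0.07 (adjusted p = 3.3e-05). That comparison lost the 1.5-fold minimum under quantile normalization, under median-ratio scaling, and without MLL1-KO1 replicate 1, each with a difference of -0.56. SAP30-KO1 and SAP30-KO2 differed by 0.05 ± 0.07 (adjusted p = 0.79), and SIN3A+SIN3B-DKO1 and SIN3A+SIN3B-DKO2 by -0.16 ± 0.07 (adjusted p = 0.14). MLL1-KO minus SAP30-KO was 0.57 ± 0.05, just under the fold minimum. It passed at 0.68 under median-ratio scaling, at 0.65 under quantile normalization, and at 0.59 to 0.60 without SAP30-KO1 replicate 1, SAP30-KO2 replicate 2, or MLL1-KO1 replicate 1. The share of all tested genes called lower was 3.25% for SAP30-KO minus SIN3A+SIN3B-DKO and 7.15% for MLL1-KO1 minus MLL1-KO2.

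Genes around RDX on the long arm of chromosome 11 were also lower. Over the 51 tested genes centred on RDX, from 102.3 to 116.7 Mb, the median log2 change was -0.75 in SAP30-KO1, -0.82 in SAP30-KO2, -0.34 in SIN3A+SIN3B-DKO1, -0.22 in SIN3A+SIN3B-DKO2, -0.92 in MLL1-KO1, and -0.37 in MLL1-KO2. In the SAP30-KO lines RDX was the lowest of all 51, and 37 and 40 of the 51 genes in the window were called lower in SAP30-KO1 and SAP30-KO2. In MLL1-KO1, 43 were called lower and 10 were lower than RDX. When the running median of 51 neighbouring genes was subtracted from each library, RDX was at -1.03, -1.0, -0.82, -0.79, and -0.65 in SAP30-KO1, SAP30-KO2, SIN3A+SIN3B-DKO1, SIN3A+SIN3B-DKO2, and MLL1-KO1, each with a standard error of 0.06 and still called. In MLL1-KO2 it was at -0.58 (adjusted p = 5.7e-06), under the 1.5-fold minimum. By the same subtraction the difference between MLL1-KO1 and MLL1-KO2 went from -0.61 to -0.07 (adjusted p = 0.36), and that between SAP30-KO and SIN3A+SIN3B-DKO lines from -0.74 to -0.21 (adjusted p = 0.0013). Gene copy number was not measured here, and its part in these values was not tested.

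**Figure D2:**
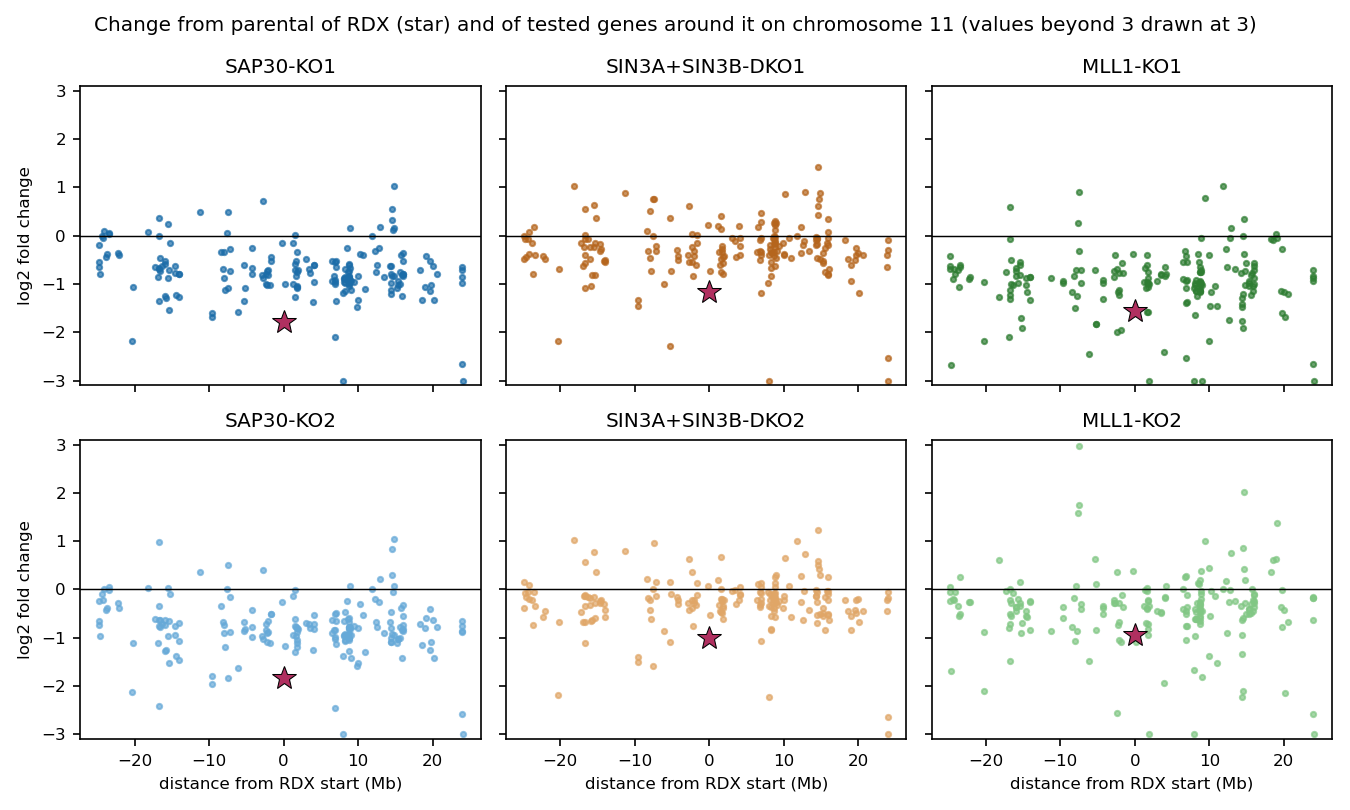
Log2 fold change from parental (y axis, values beyond 3 drawn at 3) of RDX (star) and of tested genes within 25 Mb of its start (points) against distance from that start in Mb, 1 panel per edited line. Most points lie below 0 in SAP30-KO1, SAP30-KO2, and MLL1-KO1, and RDX is the lowest of its 51-gene window in both SAP30-KO lines.

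The paralogs moved little by comparison. Moesin, the most abundant ERM RNA of these cells, is encoded on the X chromosome from 64808257 to 64961793 on the plus strand. MSN was at 1307 and 1314 TPM in parental cells. SAP30-KO1 libraries had 1496 and 1451 TPM, SAP30-KO2 had 1537 and 1544, SIN3A+SIN3B-DKO1 had 1743 and 1774, SIN3A+SIN3B-DKO2 had 1601 and 1536, MLL1-KO1 had 1389 and 1434, and MLL1-KO2 had 1472 and 1480. Every edited library was above both parental libraries, with the SIN3A+SIN3B-DKO1 pair above all others. The log2 differences were 0.17, 0.23, 0.42, 0.26, 0.11, and 0.17 in that order of lines (SE 0.03, largest adjusted p = 0.0064), and none reached 1.5-fold. The median gene of the 51 around MSN was also above parental in 5 of the 6 lines, at 0.17 in SAP30-KO1, 0.20 in SAP30-KO2, 0.12 in both SIN3A+SIN3B-DKO lines, and 0.24 in MLL1-KO2. With the running median subtracted, MSN was at -0.02 (adjusted p = 0.72) in SAP30-KO1, 0.04 (adjusted p = 0.52) in SAP30-KO2, and -0.03 (adjusted p = 0.61) in MLL1-KO2. By the same subtraction it was at 0.30 (adjusted p = 1.2e-04) in SIN3A+SIN3B-DKO1, 0.12 (adjusted p = 0.034) in SIN3A+SIN3B-DKO2, and 0.14 (adjusted p = 0.015) in MLL1-KO1. Over all alternatives the MSN difference in MLL1-KO1 ranged from -0.04 to 0.20. The lowest value (adjusted p = 0.27, limma) came under quantile normalization, although that scaling moved the median of all genes up by 0.15 in that line.

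Ezrin, the ERM protein of epithelial microvilli, is encoded on chromosome 6 from 159186773 to 159240400 on the minus strand. EZR was at 417 and 406 TPM in parental cells. SAP30-KO1 libraries had 367 and 362 TPM, SAP30-KO2 had 358 and 363, SIN3A+SIN3B-DKO1 had 396 and 391, SIN3A+SIN3B-DKO2 had 383 and 393, MLL1-KO1 had 362 and 365, and MLL1-KO2 had 297 and 293. No edited library reached the parental levels, and the MLL1-KO2 pair was the lowest. The log2 differences of -0.18, -0.19, -0.08, and -0.18 in SAP30-KO1, SAP30-KO2, SIN3A+SIN3B-DKO2, and MLL1-KO1 had adjusted p under 0.05 but not the fold minimum, and that in SIN3A+SIN3B-DKO1 was -0.06 (adjusted p = 0.055). MLL1-KO2 was at -0.48 ± 0.03 (adjusted p = 3.8e-08), which is 1.40-fold lower. The direct difference between MLL1-KO1 and MLL1-KO2 was 0.30 ± 0.03 (adjusted p = 5.8e-06).

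The summed level gives the total of ERM RNA, because TPM are per length and can be added across genes. Most of it was MSN, so the sum follows MSN and cannot show whether a paralog responded to the lower RDX. In parental cells the ERM sum was 1861 ± 5.18 TPM (SD, n = 2), of which RDX was 7.44%, EZR 22.4% and 21.9%, and MSN 70.1% and 70.8% in the 2 libraries. RDX RNA was thus a small part of the total before any editing. The share of RDX was 2.11% in SAP30-KO1, 1.98% in SAP30-KO2, 2.79% in SIN3A+SIN3B-DKO1, 3.42% in SIN3A+SIN3B-DKO2, 2.57% in MLL1-KO1, and 3.91% in MLL1-KO2. The number of MSN transcripts per RDX transcript went from 9.47 in parental cells to between 20.5 in MLL1-KO2 and 40.2 in SAP30-KO2.

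In TPM, RDX was lower than parental by 98.8 in SAP30-KO1, and the combined EZR and MSN level was higher by 115. In SAP30-KO2 RDX was lower by 100 TPM and the pair higher by 179 TPM. These lines summed to 1877 ± 37.1 and 1939 ± 9.73 TPM, and the libraries of SAP30-KO1 (1904 and 1851 TPM) overlapped the parental ones (1864 and 1857 TPM). In SIN3A+SIN3B-DKO1 RDX was lower by 76.7 TPM and the pair higher by 430.0 TPM, for a sum of 2214 ± 18.3 TPM, the highest of the series. In SIN3A+SIN3B-DKO2 the values were 69.2 lower and 235 higher, for a sum of 2026 ± 31.5 TPM. Only MSN contributed to these gains, since EZR was below parental in each line. With neighbouring genes subtracted, the MSN log2 difference was -0.02 in SAP30-KO1 and 0.04 in SAP30-KO2. It was 0.30 in SIN3A+SIN3B-DKO1 and 0.12 in SIN3A+SIN3B-DKO2. In the MLL1-KO lines the pair was higher by 52.6 and 48.6 TPM while RDX was lower by 91.5 and 66.4 TPM, and the sums of 1822 ± 36.3 and 1843 ± 3.50 TPM lay below those of parental cells.

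Relative to parental, the sum was 1.01 in SAP30-KO1, 1.04 in SAP30-KO2, 1.19 and 1.09 in SIN3A+SIN3B-DKO1 and SIN3A+SIN3B-DKO2, and 0.979 and 0.990 in MLL1-KO1 and MLL1-KO2. Under median-ratio scaling it was 0.979 in SAP30-KO1, 1.05 in MLL1-KO1, and 1.02 in MLL1-KO2, so the side of parental on which these 3 lines fell depended on the scaling. The sum remained above parental in SAP30-KO2 and in both SIN3A+SIN3B-DKO lines under that scaling. A sum over 3 genes was given no test. Across the 14 libraries the log2 levels of RDX had a Pearson r of -0.38 with MSN and 0.28 with EZR, as a description of libraries that share lines and a parental reference. MSN was not highest where RDX was lowest: the SAP30-KO lines had the lowest RDX, and MSN was lower in them than in the SIN3A+SIN3B-DKO lines by -0.14 ± 0.02 (adjusted p = 1.6e-04), a difference under 1.5-fold.

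**Figure D3:**
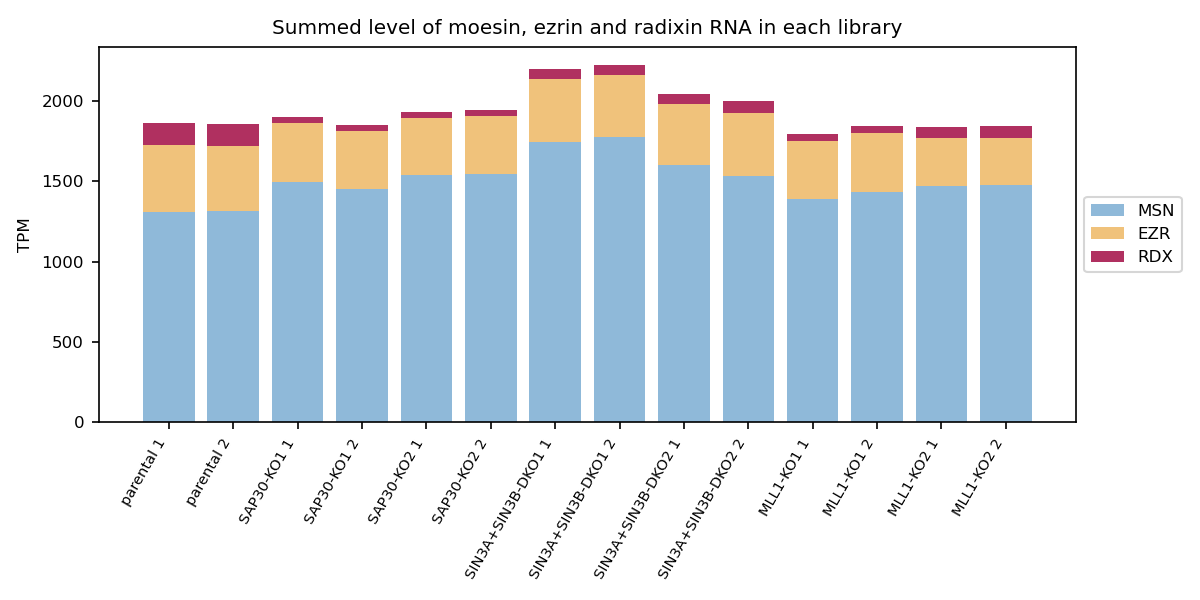
Stacked levels of MSN, EZR, and RDX RNA in TPM (y axis from 0) in each of the 14 libraries. The RDX part shrinks from 7.44% of the sum in parental cells to between 1.98% and 3.91% in the edited lines, while the height of the bars stays between 1796 and 2227 TPM.

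Merlin RNA was the least abundant of the 6. NF2 lies on chromosome 22 from 29999545 to 30094587 on the plus strand and had 335 to 580 reads per library. Parental libraries had 6.75 and 7.15 TPM. SAP30-KO1 had 8.99 and 10.1 TPM, SAP30-KO2 had 9.59 and 9.20, SIN3A+SIN3B-DKO1 had 9.45 and 9.75, and SIN3A+SIN3B-DKO2 had 9.95 and 9.27. MLL1-KO1 had 7.44 and 7.64 TPM, and MLL1-KO2 had 7.14 and 7.36. The 8 SAP30-KO and SIN3A+SIN3B-DKO libraries were above all parental and MLL1-KO libraries, whereas MLL1-KO2 overlapped parental. The log2 differences were 0.43, 0.41, 0.44, and 0.44 in the first 4 lines (SE 0.08, largest adjusted p = 0.001) and did not reach 1.5-fold. They were 0.11 (adjusted p = 0.24) in MLL1-KO1 and 0.06 (adjusted p = 0.53) in MLL1-KO2. The 51 genes around NF2 had window medians of 0.15, 0.16, 0.16, and 0.14 in the first 4 lines. Subtracting the running median left NF2 at 0.27, 0.28, 0.31, and 0.32 there (largest adjusted p = 0.014, limma). Tested directly, NF2 was lower in MLL1-KO than in SAP30-KO lines by -0.33 ± 0.05 (adjusted p = 2.2e-04) and than in SIN3A+SIN3B-DKO lines by -0.36 ± 0.05 (adjusted p = 1.3e-04), both under the fold minimum.

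NHERF1, also called EBP50, is the PDZ adaptor that joins ERM proteins to channels, transporters, and receptors. SLC9A3R1 lies on chromosome 17 from 72744767 to 72765492 on the plus strand and overlaps SLC9A3R1-AS1 on the other strand. Parental libraries had 174 and 162 TPM. SAP30-KO1 had 86.8 and 79.7 TPM, SAP30-KO2 had 87.7 and 88.4, SIN3A+SIN3B-DKO1 had 88.9 and 86.5, and SIN3A+SIN3B-DKO2 had 82.3 and 79.9. MLL1-KO1 had 90.5 and 94.3 TPM, and MLL1-KO2 had 94.2 and 91.4. The 12 edited libraries lay between 79.7 and 94.3 TPM, far below the parental pair and close to one another. The log2 change was -1.01, -0.93, -0.93, -1.04, -0.86, and -0.85 in the order of lines above (SE 0.05, largest adjusted p = 1.2e-07). The surrounding genes had window medians of -0.07 to -0.18, in each line less negative than those around RDX. Of the 51 window genes, 7 to 12 were called lower and 0 to 3 higher in a line. After subtraction of the running median, SLC9A3R1 was called in all 6 lines, at -0.95, -0.83, -0.84, -0.94, -0.67, and -0.68. No difference between the lines of a genotype or between genotypes reached 1.5-fold, and SAP30-KO minus SIN3A+SIN3B-DKO was 0.02 ± 0.03 (adjusted p = 0.65). The related adaptor SLC9A3R2 (NHERF2) rose in MLL1-KO2 by 1.17 on the log2 scale and was between -0.11 and 0.23 in the other lines; it was chosen for mention after its values were seen.

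CD44, the membrane receptor that ERM proteins and merlin compete for, lies on chromosome 11 from 35160429 to 35253949 on the plus strand, on the short arm away from RDX. Gene-level values do not separate its standard and variant isoforms. Parental libraries had 284 and 286 TPM. SAP30-KO1 had 386 and 377 TPM, and SAP30-KO2 had 382 and 381. SIN3A+SIN3B-DKO1 had 267 and 273 TPM, and SIN3A+SIN3B-DKO2 had 293 and 318. MLL1-KO1 had 469 and 475 TPM, and MLL1-KO2 had 593 and 611, so the 4 MLL1-KO libraries were above all others and SIN3A+SIN3B-DKO1 was the only line below parental. CD44 rose by 0.73 ± 0.04 in MLL1-KO1 (adjusted p = 3.0e-08) and by 1.08 ± 0.04 in MLL1-KO2 (adjusted p = 1.2e-09). In SAP30-KO1 and SAP30-KO2 the log2 differences of 0.42 and 0.42 (SE 0.04) had adjusted p under 0.05 without reaching 1.5-fold, and SIN3A+SIN3B-DKO1 and SIN3A+SIN3B-DKO2 were at -0.08 (adjusted p = 0.1) and 0.10 (adjusted p = 0.044).

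The CD44 difference between genotypes was tested directly. MLL1-KO lines exceeded SIN3A+SIN3B-DKO lines by 0.89 ± 0.03 (adjusted p = 2.1e-10), where 6.91% of tested genes were called higher. They exceeded SAP30-KO lines by 0.48 ± 0.03 (adjusted p = 3.1e-08), under the fold minimum, which it passed at 0.59 under median-ratio scaling. SAP30-KO lines exceeded SIN3A+SIN3B-DKO lines by 0.41 ± 0.03 (adjusted p = 4.6e-07), also under 1.5-fold. Genes around CD44 had window medians between -0.08 and 0.10, and subtracting them left 0.82 in MLL1-KO1 and 1.14 in MLL1-KO2.

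**Figure D4:**
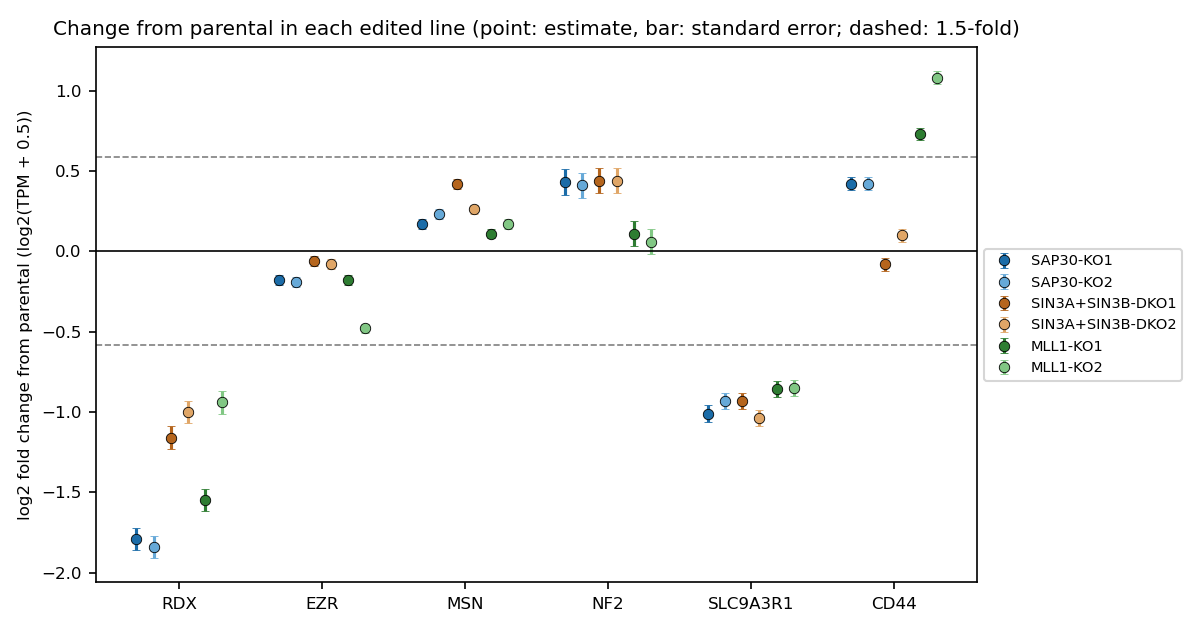
Log2 fold change from parental on the log2(TPM + 0.5) scale (y axis) of each gene in the 6 edited lines, with points for estimates and bars for standard errors, and dashed lines at 1.5-fold. RDX and SLC9A3R1 lie below the lower dashed line in all 6 lines, CD44 lies above the upper one in MLL1-KO1 and MLL1-KO2, and EZR, MSN, and NF2 lie between the lines.

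The 6 genes had distinct patterns over the 14 libraries. By Pearson correlation of log2 levels, the 5 genes most like RDX were EI24, CHEK1, TXNRD3, PPP2R1B, and RPUSD4, each at 0.97, and all except TXNRD3 lie on chromosome 11 as RDX does. SLC9A3R1 was most like NFATC1 (0.98), EZR most like CPT1A (0.98), MSN most like TPRA1 (0.96), and CD44 most like NT5E (0.99). Among the 6 genes, RDX and SLC9A3R1 had an r of 0.80 with a Spearman rank correlation of 0.47. The parental pair was highest for both genes. EZR and CD44 had an r of -0.92. These are descriptions over libraries that come in pairs from the same line.

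Genes that open or close ERM proteins were read against the 41.4% of all tested genes that were called in at least 1 line. Of the 14 tested ERM kinase, phosphatase, and related regulator genes, 4 were called in at least 1 line and 10 in none, among them RHOA, ROCK1, ROCK2, STK10, and SLK. PRKCA, a protein kinase C gene, was at 66.5 and 64.1 TPM in parental cells and fell by 0.88 and 0.65 in MLL1-KO1 and MLL1-KO2 (SE 0.05). With neighbouring genes subtracted, PRKCA was at -0.41 and -0.29 in these lines and not called. MAP4K4, an ERM and Hippo kinase, rose by 0.72 ± 0.04 in MLL1-KO2 and was at 0.58 in MLL1-KO1, just under the fold minimum. In MLL1-KO1 it passed at 0.63 under quantile normalization, 0.68 under median-ratio scaling, 0.64 with voom, 0.74 with neighbouring genes subtracted, and 0.60 without parental replicate 2 or MLL1-KO1 replicate 1. MST4, another ERM kinase, was chosen after its values were seen because its 2 SIN3A+SIN3B-DKO lines differed: it was at 14.8 and 14.3 TPM in parental cells, 18.8 and 18.5 in SIN3A+SIN3B-DKO1, and 0.641 and 1.05 in SIN3A+SIN3B-DKO2. The direct difference was 3.85 ± 0.12 (adjusted p = 1.3e-08), and MST4 also rose by 1.47 in SAP30-KO1 and by 1.30 in SAP30-KO2 (0.85 and 0.71 after subtracting neighbours) and fell by 0.75 in MLL1-KO2, to 8.94 and 8.01 TPM. The median log2 change of the list was between -0.17 and -0.04 across the lines, beside -0.09 to 0.03 for all tested genes.

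Of the 14 tested membrane partners of ERM proteins, 12 were called in at least 1 line, beside 41.4% of all genes, and 4, 4, 5, 3, 6, and 6 were lower and 3, 2, 3, 1, 1, and 3 higher in SAP30-KO1, SAP30-KO2, SIN3A+SIN3B-DKO1, SIN3A+SIN3B-DKO2, MLL1-KO1, and MLL1-KO2. The list median was between -0.47 and -0.02. FAS, the death receptor that ezrin binds, was at 5.79 and 6.90 TPM in parental cells and at 2.22 to 4.12 TPM in the edited libraries, and it fell in all 6 lines with log2 changes of -1.13 to -0.76 (SE 0.20). The SAP30-KO1 call was lost without parental replicate 2 (adjusted p = 0.072) or SAP30-KO1 replicate 2 (adjusted p = 0.076), and the MLL1-KO2 call without MLL1-KO2 replicate 2, at -0.56. MUC1, a mucin of the apical surface, was at 6.36 and 4.82 TPM and fell in all 6 lines with log2 changes of -2.47 to -1.03 (SE 0.26), a call lost in SIN3A+SIN3B-DKO2 without parental replicate 1 (adjusted p = 0.059). L1CAM, an adhesion molecule that binds ERM proteins, went from 91.3 and 85.8 TPM to 424 and 412 TPM in the MLL1-KO1 libraries and 426 and 441 TPM in those of MLL1-KO2, log2 changes of 2.23 and 2.29 (SE 0.05). L1CAM fell by 0.68 in SIN3A+SIN3B-DKO1, rose by 0.63 in SAP30-KO2, and was at 0.48 and 0.12 in SAP30-KO1 and SIN3A+SIN3B-DKO2. The SAP30-KO2 call was lost with neighbouring genes subtracted, at 0.06.

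Of 18 tested merlin pathway genes, 5 were called in at least 1 line, beside 41.4% of all genes, and 13 in none. None of the 18 was called higher in any line, where 6% to 10.2% of all genes were called higher in a line, and the list median lay between -0.16 and -0.08 across the lines. The Hippo kinases LATS1, LATS2, STK3, and STK4 were among those not called. AMOTL1, an angiomotin that binds merlin, was at 69.8 and 69.5 TPM in parental cells and fell by 1.28, 1.25, 0.82, 0.63, and 0.97 in all lines but MLL1-KO2, where it was at -0.20 (SE 0.07). AMOTL1 lies on chromosome 11 too, and with neighbouring genes subtracted it was at -0.64 in SAP30-KO1, the only call kept, and at -0.55, -0.53, -0.36, and -0.09 in SAP30-KO2, SIN3A+SIN3B-DKO1, SIN3A+SIN3B-DKO2, and MLL1-KO1. The AMOTL1 call in SIN3A+SIN3B-DKO2 was also lost without replicate 1 of that line, at -0.54. DDB1, part of the ubiquitin ligase that merlin inhibits, fell by 0.73 in SAP30-KO1 and by 0.68 in SAP30-KO2, but it was at -0.18 and -0.11 there after subtraction. YAP1, the Hippo effector, was chosen after its values were seen: it fell by 0.68, 0.68, and 0.83 in SAP30-KO1, SAP30-KO2, and MLL1-KO1 and had values between -0.32 and -0.17 in the other lines. YAP1 is a chromosome 11 gene as well. No value with neighbouring genes subtracted is given for YAP1, so the part of its surrounding genes in these changes was not tested.

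Among 27 other tested FERM domain genes, 13 were called in at least 1 line, a share near the 41.4% of all genes, and 14 in none, including the talin gene TLN1, and the list median lay between -0.26 and -0.05. FRMD3 was at 18.4 and 19.0 TPM in parental cells and at 4.90 to 8.71 TPM in the edited libraries, and it fell in all 6 lines, with log2 changes of -1.77 to -1.10 (SE 0.08). FERMT3, the kindlin of blood cells, was under 1 TPM in parental cells, at 0.272 and 0.392. It rose in both SIN3A+SIN3B-DKO and both MLL1-KO lines by 0.97, 0.65, 1.12, and 1.74 (SE 0.22), and the SIN3A+SIN3B-DKO2 call was lost at a pseudocount of 1 (0.44), with only the line's own and the parental libraries (adjusted p = 0.078), and without parental replicate 1 or SIN3A+SIN3B-DKO2 replicate 1. FERMT1, the epithelial kindlin, was chosen after its values were seen. It fell by 0.84, 0.95, 1.33, and 1.25 in the SAP30-KO and SIN3A+SIN3B-DKO lines and rose by 1.88 and 3.20 in MLL1-KO1 and MLL1-KO2 (SE 0.06), from 17.1 and 17.2 TPM to 64.7 and 64.3 TPM in MLL1-KO1 and to 164 and 159 TPM in MLL1-KO2.

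Genes around hyaluronan and other CD44 ligands were called in at least 1 line for 9 of the 10 tested, beside 41.4% of all genes, with list medians of -0.07 to 0.33. In the MLL1-KO lines, where CD44 rose, MLL1-KO1 had 4 of them lower and 4 higher, and MLL1-KO2 had 3 lower and 4 higher, where 16.3% and 14.9% of all genes were lower and 6.89% and 10.2% higher. MMP14, the membrane protease that cleaves CD44, was at 425 and 417 TPM in parental cells and rose by 1.16 and 1.78 (SE 0.04), to 940.0 and 939 TPM in MLL1-KO1 and 1447 and 1448 TPM in MLL1-KO2. KIAA1199, which binds and breaks down hyaluronan, went from 7.15 and 6.43 TPM to 0.381 and 0.264 TPM in the MLL1-KO1 libraries and 0.0626 and 0.118 TPM in those of MLL1-KO2, log2 changes of -3.15 and -3.63 (SE 0.17). These values rested on 3 to 22 reads a library and ranged over the alternatives from -4.32 to -2.56 and from -6.09 to -2.84. KIAA1199 also fell by 1.26, 1.29, and 1.17 in SAP30-KO1, SAP30-KO2, and SIN3A+SIN3B-DKO1 and was at -0.31 (adjusted p = 0.15) in SIN3A+SIN3B-DKO2, where it was at -0.57 without replicate 1 of that line and at -0.05 without replicate 2. HAS2, a hyaluronan synthase chosen after its values were seen, rose by 0.84 and 1.62 in MLL1-KO1 and MLL1-KO2 and fell by 0.66, 0.60, and 0.74 in SAP30-KO1, SAP30-KO2, and SIN3A+SIN3B-DKO2.

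**Figure D5:**
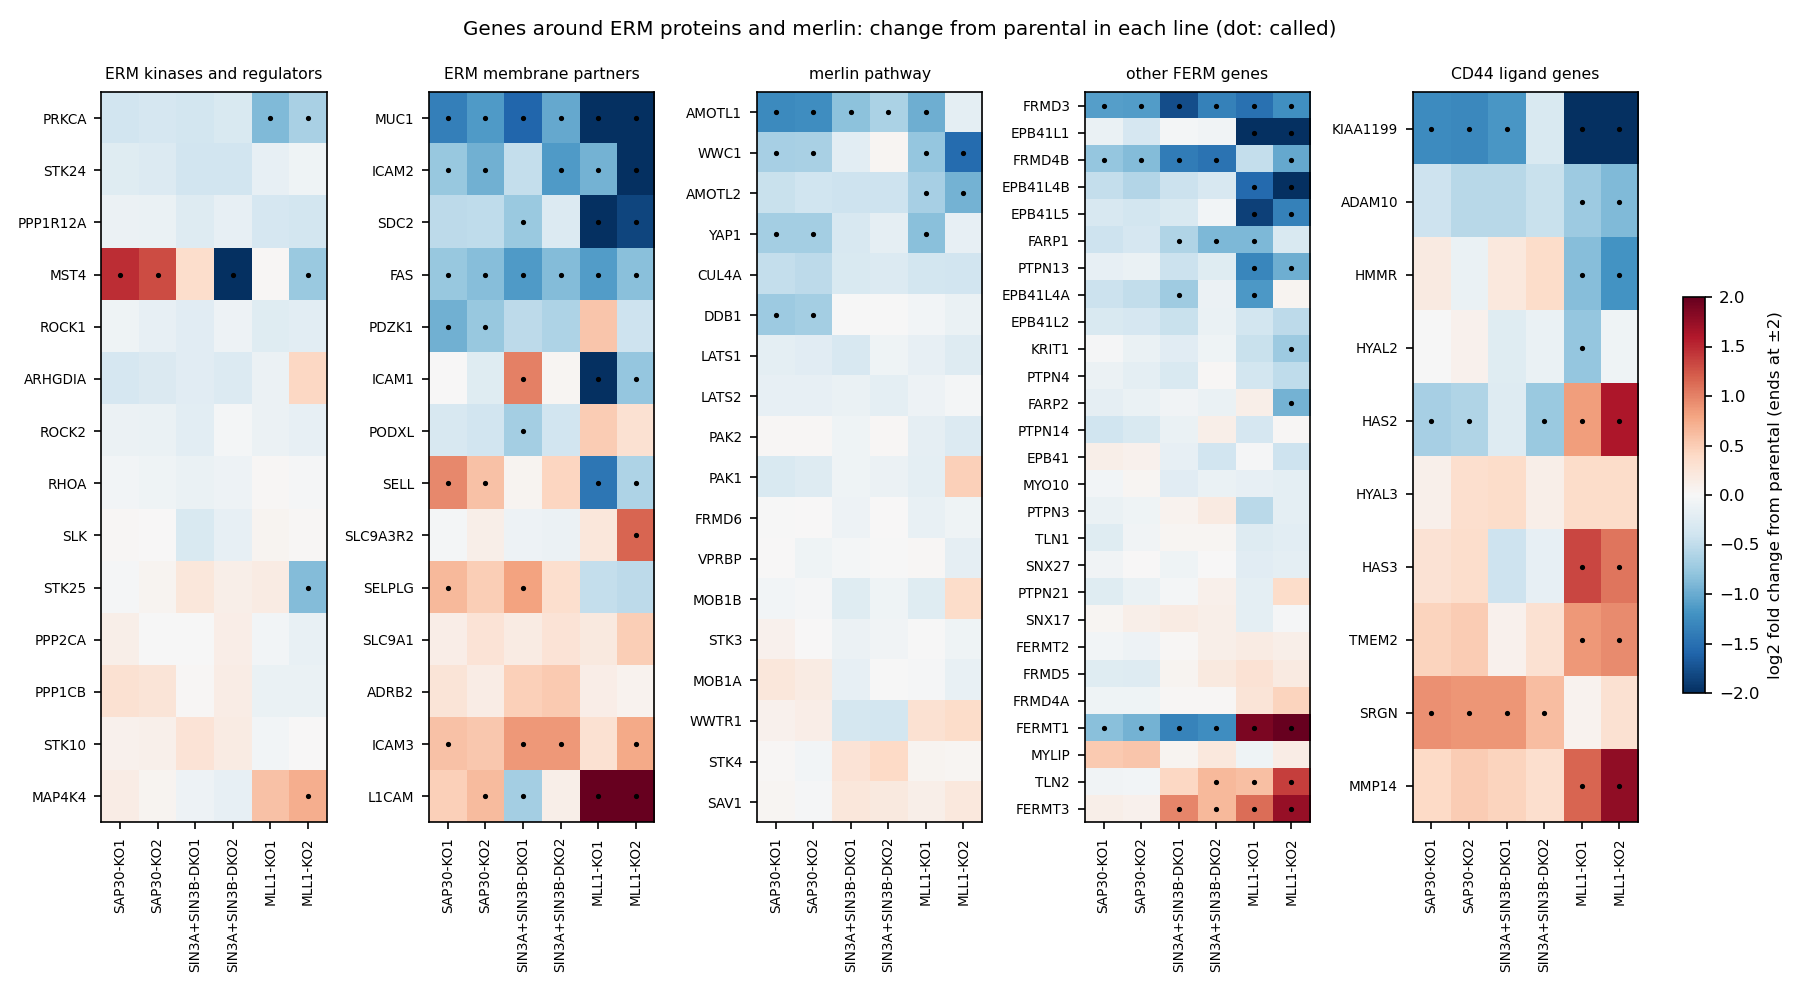
Log2 fold change from parental (color, scale ending at ±2) of the tested genes of 5 lists (rows) in the 6 edited lines (columns), with a dot where the gene was called. MUC1, FAS, and FRMD3 carry a dot for lower levels in all 6 lines, and most kinase and Hippo genes carry none.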

How the data were processed

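The authors sequenced mRNA libraries (KAPA kit, Illumina NextSeq), and the processing notes name FastQC 0.11.2, TopHat, featureCounts, and hg19; the annotation is not given in the sources used here. The deposited values are called RPKM, but every library sums to 1000000, so they are the authors' TPM per gene, which the same log2 test fits. As each library has this fixed total, differences in RNA per cell cannot be seen. Whole reads were recovered for 100.0% of 18519 genes above 0 (tolerance 0.02 read). As 28 gene names had become dates, those genes are not named.

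Genes at 1 TPM or more in at least 2 of 14 libraries were fitted as log2(TPM + 0.5) with limma 3.58.1 (R 4.3.3), variance trend, and 7 group means, with Benjamini-Hochberg adjustment over 13540 genes per comparison. A call needs adjusted p under 0.05 and at least 1.5-fold. In simulated data for SAP30-KO1, of the 13540 genes, 25 of 67 changed 1.5-fold, 61 of 67 changed 2-fold, and 64 of 66 changed 4-fold were called. So were 3 genes simulated without change. Positions are GRCh37 (GENCODE 44 annotation), and 96.4% of tested genes had one. Same-numbered libraries did not deviate together (mean correlation 0.01 over 21 pairs of groups, -0.07 to 0.08).

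The 6 genes and all lists were chosen with earlier results of these data known. Named from each list are genes called alike in all 6 lines and those with the largest and smallest mean change among called genes; for likeness, 5 genes for RDX and 1 for each other gene (that for NF2 is not reported here). Of the marker lists, those of MDA-MB-231, luminal, and leukocyte, endothelial, and fibroblast cells summed to 9019 to 12127, 34.7 to 56.9, and 6.19 to 16.1 TPM. Alternatives were other pseudocounts (0.1 and 1), no filter, quantile and median-ratio scaling, 2 conditions only, a replicate block, each library left out, voom on reads, neighbours subtracted, and other fold minimums. Python 3.11.15 was used for counts and plots.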

Additional observations from a re-analysis of the deposited data

Results flagged for a closer look

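Some differences between lines of a genotype, or between genotypes, passed the adjusted p and the 1.5-fold minimum when tested directly. Among the 6 genes these were CD44 for MLL1-KO minus SIN3A+SIN3B-DKO (0.89) and RDX for SAP30-KO minus SIN3A+SIN3B-DKO (-0.74) and MLL1-KO1 minus MLL1-KO2 (-0.61). With neighbouring genes subtracted, the CD44 difference was 0.99 and still called. The RDX differences were then -0.21 and -0.07, and neither was called.

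Among the pathway genes, MLL1-KO minus SAP30-KO was 0.68 for AMOTL1, 0.61 for DDB1, 3.43 for FERMT1, 1.33 for FERMT3, -2.12 for KIAA1199, 1.70 for L1CAM, 1.02 for MMP14, -1.74 for MST4, and -1.10 for MUC1. MLL1-KO minus SIN3A+SIN3B-DKO was 3.83 for FERMT1, 0.62 for FERMT3, -2.65 for KIAA1199, 2.54 for L1CAM, 0.79 for MAP4K4, 1.08 for MMP14, 1.22 for MST4, and -1.03 for MUC1. SAP30-KO minus SIN3A+SIN3B-DKO was -0.69 for DDB1, -0.71 for FERMT3, 0.84 for L1CAM, and 2.96 for MST4. Between lines of 1 genotype, MLL1-KO1 minus MLL1-KO2 was -0.77 for AMOTL1, -1.32 for FERMT1, -0.62 for FERMT3, -0.62 for MMP14, and 0.78 for MST4, and SIN3A+SIN3B-DKO1 minus SIN3A+SIN3B-DKO2 was -0.86 for KIAA1199, -0.81 for L1CAM, and 3.85 for MST4. SAP30-KO1 and SAP30-KO2 had no such difference among these genes. Values with neighbouring genes subtracted are not given for these pathway gene differences, among them those of AMOTL1 and DDB1. The cause of these differences was not tested.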

How the results depend on the processing

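Over the comparisons with parental, the direction and call of RDX, SLC9A3R1, and CD44 were kept under every alternative with a 1.5-fold minimum, except that RDX in MLL1-KO2 fell under that minimum with neighbours subtracted (-0.58). EZR, MSN, and NF2 were called in none that kept a fold minimum. The replicate block moved no call of the 6 genes (RDX -1.79 in SAP30-KO1 with the block). MLL in SAP30-KO2 reversed to 0.19 with neighbours subtracted.

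With a 2-fold minimum the genes of the 6 called lower were 1 in SAP30-KO2, both SIN3A+SIN3B-DKO lines, and MLL1-KO1 and 0 in MLL1-KO2, and 0 were called higher in MLL1-KO1. With neighbours subtracted 1 was lower in MLL1-KO2. With no fold minimum 3 were higher in SAP30-KO1, SAP30-KO2, and SIN3A+SIN3B-DKO2 and 2 in SIN3A+SIN3B-DKO1, MLL1-KO1, and MLL1-KO2.

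Over all genes, in the order SAP30-KO1, SAP30-KO2, SIN3A+SIN3B-DKO1, SIN3A+SIN3B-DKO2, MLL1-KO1, and MLL1-KO2, a 2-fold minimum gave 452, 457, 512, 474, 1091, and 1015 lower and 347, 343, 309, 230, 385, and 588 higher. No fold minimum gave 3102, 3355, 3820, 3238, 5234, and 4905 lower and 3802, 3642, 3769, 3476, 2954, and 3787 higher. With neighbours subtracted SAP30-KO1 had 699 higher and MLL1-KO1 1453 lower, and quantile normalization gave MLL1-KO1 1451 higher.

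Under median-ratio scaling the ERM sum relative to parental was 0.979, 1.02, 1.07, 1.05, and 1.02 in SAP30-KO1, SAP30-KO2, SIN3A+SIN3B-DKO2, MLL1-KO1, and MLL1-KO2, and by recovered reads it was 1.20, 1.0, and 1.01 in SIN3A+SIN3B-DKO1, MLL1-KO1, and MLL1-KO2. By reads, which weight long transcripts, the RDX share was 3.03%, 2.83%, 3.98%, 4.88%, 3.69%, and 5.53% in the 6 lines. The parental share by reads is not given, and these shares cannot be set against the parental 7.44%, which is by TPM. NF2, with 335 to 580 reads a library, was the least precise of the 6. The simulated 1.5-fold changes equal the call minimum, so many estimates had to fall under it. Their count of 25 of 67 therefore does not measure power, and calls near that size can be missed.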
